A study of Neurospora crassa with 16 samples.

Results

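The genes described here are the serine/threonine protein kinases of the filamentous fungus Neurospora crassa, including stk-12 (NCU07378), the kinase gene that the mutant is labelled as lacking. They were found by their product names in the deposited table: a row was taken where the name held "kinase" together with "serine/threonine", "serine threonine" or "protein kinase". The rows NCU06182, NCU04612 and NCU02393, which belong to the mating and fusion MAP kinase cascade, were left out. The rule found 77 of the 9730 genes in the table, and no measured value was used to choose them. By product name, 70 of the 77 are protein kinases. The other 7 are genes whose names mention a kinase: the regulators, adaptors and complex components ty-1, mcb, mob-1, mob-2b, NCU01389 and NCU08772, and the histidine kinase NCU01823. Casein kinases and other kinases named without these words are outside the rule.

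RNA of mycelia was sequenced from the mutant labelled △stk-12 and from WT, both grown from conidia in constant light on Avicel, a crystalline cellulose, with Vogel's salts. Libraries were made after 12h, 1d, 3d and 5d of culture, which gave 4 mutant and 4 WT groups of 2 libraries each, 16 libraries in all. The labels do not say whether the 2 libraries of a group came from separate cultures, so the p-values measure only the spread between these libraries, which may be technical.

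Serine/threonine protein kinases transfer phosphate from ATP to serine and threonine residues of other proteins and so switch enzymes, transcription factors and structural proteins between states. In filamentous fungi, MAP kinase cascades carry osmotic and cell wall signals, cAMP-dependent kinase carries nutrient signals, NDR kinases direct growth at the hyphal tip, and cyclin-dependent and checkpoint kinases pace nuclear division. The amount of a kinase transcript is only 1 layer of this control, because the activity of most kinases is set by other kinases, regulatory subunits or second messengers.

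Reads assigned to genes ran from 14946389 to 26466759 per library, and the 77 members took 0.53 to 1.21% of them. The mating type gene matA-1 had 0 reads in all 8 mutant libraries and 350 to 4396 in the WT libraries, so the strains also differed in mating type, and effects of the deletion and of mating type cannot be told apart. In bulk mycelium, fewer cells of a type and less RNA per cell cannot be told apart either. The summed level of 8 conidiation markers, genes of the asexual spore programme, ran from 355 CPM at 1d to 2441 CPM at 5d in the mutant (508 at 12h and 1054 at 3d). In WT it was 559, 496, 2349 and 1432 CPM in the order of the times. The markers did not move together: at 5d 3 of the 8 were called higher in the mutant and 4 lower (median log2 fold change -0.83). None of the 8 was at 0 reads in any library. CPM are read counts relative to the library size, here scaled by the TMM method.

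All 77 members passed the filter on low counts and were tested. Below, a gene that rose or fell at a single time was higher or lower in the mutant than in WT there. A rise or fall from one time to another is within a strain. Per gene length, in the RPKM values of the authors, their median level over the 16 libraries was 25.4, against 17.3 for all genes tested. They were long genes, with a median length of 3374 bp against 2036 bp, and they varied less than most genes. The median ratio of the highest to the lowest group mean was 1.89 for members and 2.97 for all genes tested. This was not particular to kinases: 31 protein phosphatases had the same median ratio (1.89), at a median level of 30.2 RPKM. The most abundant member was prk-1, which encodes the fungal GSK3 kinase, with a mean of 134 RPKM and a range of 54.5 to 292 RPKM over the libraries. It was followed by os-2, the MAP kinase of the osmosensing pathway (97.3 RPKM), mdk-2, named for the fission yeast SR protein kinase dsk1 (89.8 RPKM), nrc-2, a kinase known for repressing conidiation (89.7 RPKM), and stk-14, the IRE1 kinase that senses unfolded proteins in the endoplasmic reticulum (68.4 RPKM). At the other end, stk-21 averaged 0.578 RPKM and prk-9 0.687 RPKM. The flattest member was mak-1, the MAP kinase of cell wall integrity, whose group means in CPM differed by at most 1.11-fold. The widest ranges were those of stk-12 and prk-9, at 11.3-fold each.

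**Figure D1:**
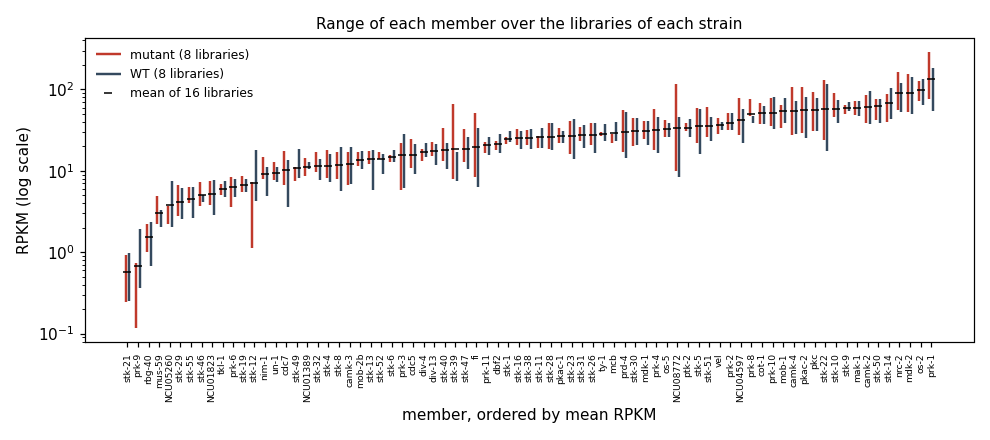
Deposited RPKM of each of the 77 members on a log axis, ordered by mean level. Red and blue vertical lines span the 8 mutant and the 8 WT libraries, and black dashes mark the mean of all 16. Levels run from stk-21 (0.578 RPKM) to prk-1 (134 RPKM), and for most members the spans of the strains overlap.

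stk-12 was lower in the mutant at every time, and reads were still assigned to it there. Its reads were 386 and 371 in the mutant at 12h, against 905 and 932 in WT. They were 155 and 161 against 483 and 556 at 1d. At 3d the mutant had 761 and 706 reads and WT 2429 and 2233. At 5d they were 1021 and 1190 in the mutant, against 2065 and 2108 in WT. Mutant and WT libraries did not overlap at any time once scaled to CPM. The mutant level was 38.2% of the WT level at 12h and 43.3% at 5d, and between them 24.5% (1d) and 35% (3d). In the order of the times, the log2 fold changes were -1.39 ± 0.076, -2.03 ± 0.088, -1.52 ± 0.0699 and -1.21 ± 0.0683 (SE, edgeR's quasi-likelihood test with Benjamini-Hochberg adjustment over all 8983 genes tested, adjusted p = 3.93e-09, 1.59e-10, 1.41e-11 and 3.57e-10). stk-12 was the only member called lower at all 4 times (1.3% of members, against 0.79% of all genes), and no member was called higher at all 4 (0.59% of all genes). Neither count changed under the other scalings tried.

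The level of reads assigned to stk-12 rose over the culture in both strains. From 12h to 5d it rose by 1.52 ± 0.0755 on the log2 scale in the mutant and by 1.34 ± 0.0691 in WT (edgeR, adjusted p = 7.68e-12 and 1.23e-11). The genotype difference itself was not equal over time: the difference at 1d was larger than at 12h by -0.64 ± 0.117 (edgeR, adjusted p = 0.00163), and that at 5d was smaller than at 3d by 0.31 ± 0.0969 (edgeR, adjusted p = 0.014). The table gives 1 count for the whole gene of 7663 bp, so the position and strand of the mutant's reads within stk-12 are not known.

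None of the 3 tested genes nearest to stk-12 was called lower at all 4 times. By the order of loci in the RefSeq table of assembly NC12, NCU07379, a bZIP-type transcription factor, stands next to it on one side. Its log2 fold change was 0.20 at 12h and -0.01 at 5d, and it fell at 1d by 0.56 and at 3d by 1.03 (edgeR, adjusted p = 0.000351 and 8.91e-08). The next locus on that side, eif3d, a translation initiation factor subunit, rose at 3d by 0.75 and at 5d by 0.29. On the other side NCU07375, a phosphate transporter by product name, rose at 5d by 1.07.

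Mutant and WT differed in few members at 12h and in most at 5d. At 12h, 7 members were called higher and 1 lower. These were 10.4% of members, against 13% of all genes tested, of which 6.53% were higher and 6.51% lower. At 1d, 12 were higher and 17 lower, or 37.7%, against 37.1% of all genes (19.1% higher, 18% lower). At 3d, 12 were higher and 20 lower, or 41.6%, against 59.5% of all genes (29.4% higher, 30% lower). At 5d, 41 were higher and 11 lower, or 67.5%, against 61.6% of all genes. The share of members called was below that of all genes at 3d and within 6 percentage points of it at the other times. Averaged over the 4 times, 33 members were higher and 11 lower (57.1%, against 53.5% of all genes, 28.9% higher and 24.7% lower), or 26 and 17 with library totals alone (all genes 23.9% and 28.4%).

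At 5d the split by direction was uneven among the kinases. Of the 77 members, 53.2% were higher and 14.3% lower, against 30.6% and 30.9% of all genes tested, and the median log2 fold change was 0.27, against -0.01. Without the 7 rows that are not serine/threonine kinases by name, 40 of 70 were higher and 8 lower. Summed over members, the level at 5d was 10435 and 10296 CPM in the mutant libraries, against 7768 and 8179 CPM in WT. At 3d the sums were 7775 and 7967 CPM in the mutant, against 7863 and 8006 CPM in WT, and they overlapped. The highest of the 8 group means was that of the mutant at 5d for 34 members (44.2%), against 19.4% of all genes.

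More members were higher than lower at 5d under each scaling tried, while the splits of 1d and 3d moved. With library totals alone, the median of all genes moved to 0.18 at 1d, -0.25 at 3d and -0.11 at 5d, and the members split into 28 higher and 9 lower at 1d, 3 and 53 at 3d, and 34 and 15 at 5d. All genes moved with that scaling too, to 33.8% higher and 8.4% lower at 1d, 18.3% and 47.3% at 3d, and 22.8% and 36.9% at 5d. The member counts at the early times also fell when single libraries were left out. That of 12h fell without mutant replicate 2 or either WT library. That of 1d fell without mutant replicate 1 or either WT library. The shares of all genes called without those libraries are not given here, so these falls cannot be read as particular to kinases.

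**Figure D2:**
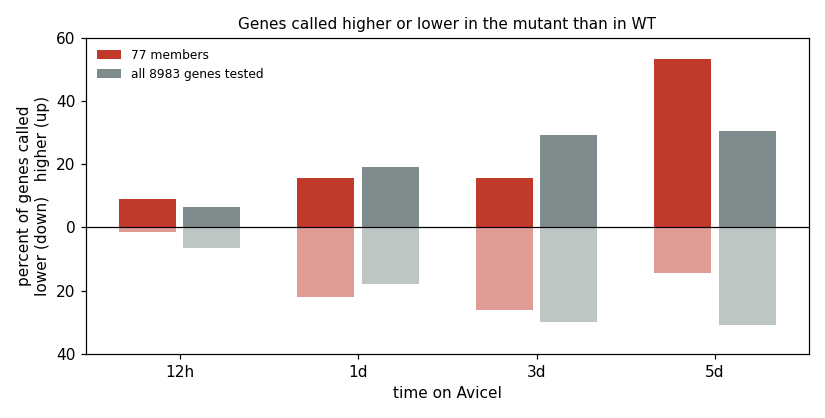
Percent of genes called higher (above 0) and lower (below 0) in the mutant than in WT at each time, for the 77 members (red) and all 8983 genes tested (grey). At 5d 53.2% of members were higher and 14.3% lower, against 30.6% and 30.9% of all genes.

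The genotype difference changed with time for 52 members by the F test over the 4 times (67.5%, against 77.5% of all genes). Between 3d and 5d it moved upward in 40 members and downward in 5 (58.4%, against 51.9% of all genes, of which 26.4% moved upward and 25.5% downward). Between 1d and 3d it moved upward in 13 and downward in 14 (35.1%, against 53.3% of all genes, 26.2% upward and 27.1% downward). With library totals alone it did so in 4 and 47 (all genes 13.5% upward, 50% downward). With DESeq2 size factors it did so in 17 and 11, for which the shares of all genes are not given here. Between 12h and 1d it moved upward in 6 and downward in 13 (24.7%, against 21.7% of all genes, 12.2% upward and 9.42% downward), but with library totals alone upward in 11 and downward in 8 (all genes 19.2% and 5%). That count of 19 fell without mutant 12h replicate 2 and without mutant 1d replicate 1. The shares of all genes without those libraries are not given here. In all, 20 members were called higher at one time and lower at another (26%, against 27.1% of all genes), and 11 were called at no time (14.3%, against 12.2%). Scaled by library totals alone, these were 32 (41.6%, against 33%) and 4 (5.19%, against 10.1%).

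The late rise of kinase transcripts was seen in the mutant, where 38 members rose and 7 fell from 3d to 5d (58.4%, against 62.9% of all genes, 31.7% higher and 31.2% lower). In WT 11 rose and 18 fell over the same step (37.7%, against 54.6%, 27.1% higher and 27.5% lower). From 1d to 3d, 30 rose and 26 fell in the mutant (72.7%, against 72.6%, 35.6% higher and 37% lower). In WT 36 rose and 25 fell (79.2%, against 79%, 41.9% higher and 37.1% lower). From 12h to 1d, 17 rose and 13 fell in the mutant (39%, against 40.7%, 21.4% higher and 19.3% lower). In WT 29 rose and 17 fell (59.7%, against 56.8%, 26.1% higher and 30.7% lower). Over the whole culture, from 12h to 5d, 42 rose and 21 fell in the mutant (81.8%, against 82.3%, 41.9% higher and 40.4% lower). In WT 34 rose and 25 fell (76.6%, against 84.6%, 43.9% higher and 40.7% lower). Scaling by library totals alone moved most of these splits. It gave 51 rises and 4 falls from 3d to 5d in the mutant (all genes 42.9% and 23%), against 14 and 13 in WT (30.7% and 23.4%). From 1d to 3d it gave 33 and 17 in the mutant (39.9% and 31.7%), against 56 and 9 in WT (60.9% and 22.4%). From 12h to 1d the members divided into 30 and 7 in the mutant (29.5% and 12.4%), against 27 and 18 in WT (24.8% and 31.9%). From 12h to 5d they divided into 54 and 7 in the mutant (53.6% and 28.9%), against 56 and 7 in WT (59.9% and 25.7%). The steps and the genotype comparisons share libraries, so these counts are not independent of each other.

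**Figure D3:**
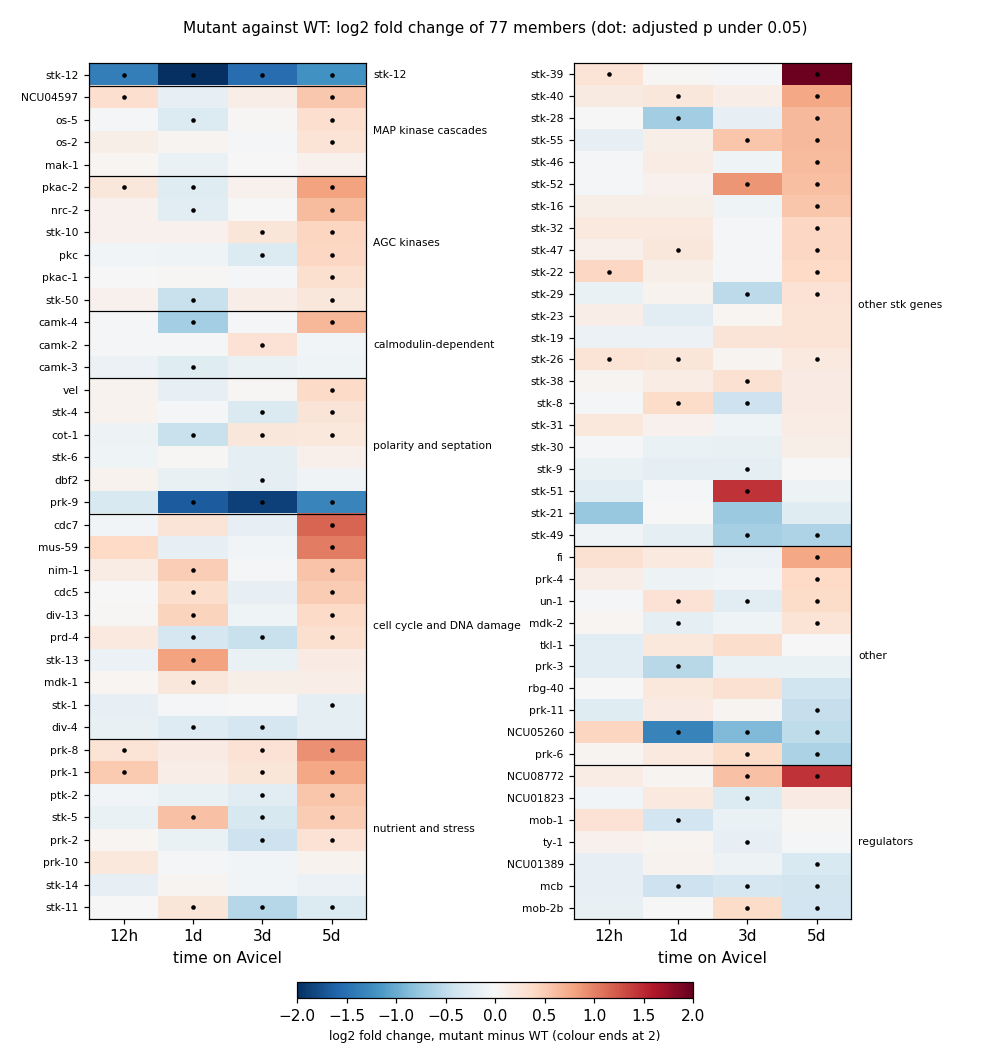
Log2 fold change of mutant against WT for each of the 77 members at each time, grouped by role. Red is higher and blue lower in the mutant, the colour scale ends at 2 in each direction, and a dot marks an adjusted p under 0.05. stk-12 is blue at all 4 times, and the 5d columns hold 41 dotted red and 11 dotted blue cells.

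The counts per role that follow stand against all genes tested, of which 19.1% were higher and 18% lower at 1d. The shares were 29.4% and 30% at 3d, and 30.6% and 30.9% at 5d. Those with library totals alone are given above, and no role was tested as a set. The AGC family includes cAMP-dependent kinase and protein kinase C. All 6 kinases counted under this role were higher in the mutant at 5d (median log2 fold change 0.42). The kinases cot-1, dbf2 and prk-2 had also been listed as AGC kinases but were placed in other roles. At 5d cot-1 (0.21) and prk-2 (0.29) were called higher and dbf2 was not called. The call of cot-1 was lost with library totals alone (0.11). Scaling by library totals alone left 5 of the 6 higher at 5d. At 1d 3 of the 6 were lower and none higher, but with library totals alone 1 was lower and 2 higher. pkac-2, a catalytic subunit of cAMP-dependent kinase, had 261 and 267 CPM in the mutant at 5d, against 154 and 148 CPM in WT. Every mutant library lay above both WT libraries (log2 fold change 0.80 ± 0.06, edgeR, adjusted p = 1.01e-08). nrc-2 had 379 and 412 CPM in the mutant at 5d, against 246 and 267 CPM in WT (0.63 ± 0.0729, edgeR, adjusted p = 1.82e-06). At 1d nrc-2 was lower in the mutant by -0.23, a call lost with library totals alone (-0.07) and without mutant replicate 1, WT replicate 1 or WT replicate 2 of that time (adjusted p = 0.194, 0.157 and 0.0563). pkc, the single protein kinase C among the members, which acts upstream of the cell wall integrity pathway, was lower at 3d (-0.28) and higher at 5d (0.41). stk-10, named for the fission yeast kinase sck1, rose by 0.43 at 5d. stk-10 was also higher at 3d (0.24), a call lost with library totals alone (0.02). stk-50, named for gad8 of fission yeast, fell at 1d by 0.44, and no left-out library or library totals alone (-0.29) ended that call. At 5d it rose by 0.23, a call lost with library totals alone (0.13) and without mutant 5d replicate 2 or WT 5d replicate 1.

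At 5d both catalytic subunit genes of cAMP-dependent kinase were higher in the mutant and the regulatory subunit gene lower. The difference between subunits was not itself tested. In the inactive enzyme a regulatory subunit holds the catalytic subunits, and cAMP releases them. mcb, the regulatory subunit, had 69.3 and 68.7 CPM in the mutant at 5d, against 86.8 and 91.2 CPM in WT, with no overlap. It fell at 1d, 3d and 5d by 0.42, 0.33 and 0.37 on the log2 scale (edgeR, adjusted p = 9.95e-05, 0.000202 and 8.49e-05). At 12h its log2 fold change was -0.16 (adjusted p = 0.104). The catalytic subunit gene pkac-1 had 88.7 and 86.2 CPM in the mutant at 5d, against 69.6 and 70.8 CPM in WT, and rose there by 0.32 ± 0.0615 (edgeR, adjusted p = 0.000332). Before 5d its log2 fold changes were -0.01, 0.03 and -0.04, none past the test, and mutant and WT libraries overlapped. With library totals alone it was higher at 1d (0.19) and lower at 3d (-0.26). pkac-2 was called higher at 12h (0.23) and lower at 1d (-0.24). The 12h call was lost without mutant replicate 2 or either WT library of that time, and the 1d call without WT replicate 1 and with library totals alone (-0.09).

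**Figure D4:**
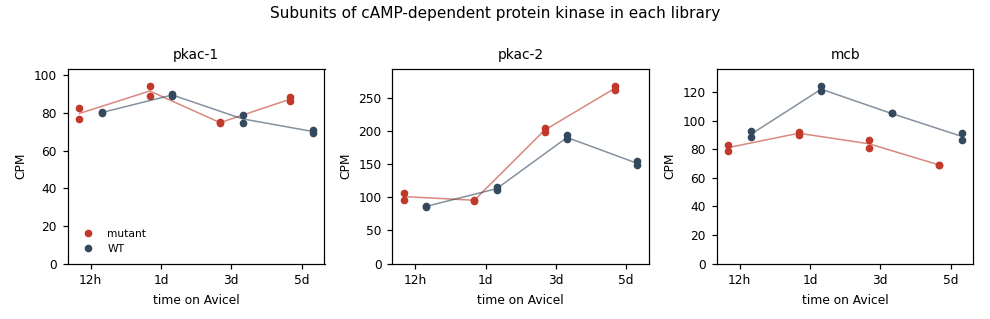
CPM of the catalytic subunit genes pkac-1 and pkac-2 and of the regulatory subunit gene mcb in each library, with lines through the group means. At 5d the mutant libraries lie above WT for pkac-1 and pkac-2 (261 and 267 against 154 and 148 CPM) and below WT for mcb.

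Of the 4 members of MAP kinase cascades, 3 were higher at 5d and none lower, also with library totals alone. os-2 had 313 and 299 CPM in the mutant at 5d, against 269 and 236 CPM in WT (0.28 ± 0.0707, edgeR, adjusted p = 0.00312), a call lost without WT 5d replicate 2 (adjusted p = 0.0639). os-5, the MAP kinase kinase that activates os-2, rose at 5d by 0.34. At 1d it was lower (-0.28), a call lost with library totals alone (-0.12) and without mutant 1d replicate 1 or WT 1d replicate 2. NCU04597, a MAP kinase by product name (MAF1), had 106 and 120 CPM in the mutant at 12h, against 89.3 and 89.4 CPM in WT. At 5d it had 231 and 227 CPM in the mutant, against 157 in each WT library. It rose by 0.33 ± 0.0637 at 12h and 0.54 ± 0.0623 at 5d (edgeR, adjusted p = 0.00244 and 1.59e-06). mak-1 was called at no time with TMM scaling, with log2 fold changes between -0.13 and 0.08, but with library totals alone it was lower at 3d (-0.23, edgeR, adjusted p = 0.00766).

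The 3 calmodulin-dependent kinases, which are switched on by calcium bound to calmodulin, each followed another course. camk-4 had 140 and 133 CPM in the mutant at 1d, against 219 and 218 CPM in WT, and 307 and 309 CPM in the mutant at 5d, against 198 and 193 CPM in WT. It was lower in the mutant than in WT by 0.68 at 1d and higher by 0.66 ± 0.0647 at 5d (edgeR, adjusted p = 1.89e-06 and 2.65e-07). In WT it rose by 0.96 from 12h to 1d. In the mutant the log2 fold changes of the 3 kinases over that step were between 0.11 and 0.31. camk-2 was higher at 3d (0.29), a call lost with library totals alone (0.06), and was -0.06 at 5d (adjusted p = 0.423). camk-3 was called only at 1d (-0.24, adjusted p = 0.0487), and that call was lost with 13 of the 16 libraries left out in turn.

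Of the 6 kinases of polarity and septation, 3 were higher and 1 lower at 5d, but with library totals alone 1 was higher and 2 lower. The NDR kinase cot-1, required for hyphal tip extension, had 141 and 155 CPM in the mutant at 1d, against 202 and 204 CPM in WT. It fell at 1d by 0.45. Its rises of 0.22 at 3d and 0.21 at 5d were lost with library totals alone (-0.01 and 0.11), and that at 3d also without mutant replicate 2. The p21-activated kinase gene vel rose at 5d by 0.38, and stk-4, of the same family, by 0.26, a call lost with library totals alone (0.16). At 3d stk-4 was lower (-0.29), a call lost without mutant 3d replicate 1 or WT 3d replicate 2. dbf2, an NDR kinase of septation, had a log2 fold change of -0.07 at 5d (adjusted p = 0.348) and was lower at 3d (-0.19), a call lost with 4 of the 16 libraries left out in turn. stk-6 was called at no single time with TMM scaling, at a mean log2 fold change of -0.04. prk-9 was scarce, with 7 to 85 reads per library. It had 27 and 39 reads in the mutant at 1d, against 83 and 85 in WT, and 16 and 7 in the mutant at 3d, against 61 and 33 in WT. It fell by 1.67 ± 0.341 at 1d and by 1.86 ± 0.459 at 3d (edgeR, adjusted p = 0.00143 and 0.00234). At 5d it had 17 and 18 reads in the mutant, against 20 and 52 in WT, and its fall of 1.32 (adjusted p = 0.0154) became -0.48 without WT replicate 2 (adjusted p = 0.429) and was lost without mutant replicate 2 (adjusted p = 0.0876).

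Of the 10 kinases of the cell cycle and DNA damage, 5 were higher and 2 lower at 1d, none higher and 2 lower at 3d, and 6 higher and 1 lower at 5d. With library totals alone these were 6 and 0, 0 and 8, and 5 and 2. stk-13, a cell cycle kinase in this grouping by its product name, had 29.4 and 29.6 CPM in the mutant at 1d, against 13.8 and 19.8 CPM in WT (0.81 ± 0.131, edgeR, adjusted p = 0.000231). nim-1, the counterpart of the Aspergillus mitotic kinase NIMA, rose by 0.49 at 1d and 0.57 at 5d, and the polo kinase gene cdc5 by 0.35 and 0.50. cdc7, a cell cycle kinase by product name, fell over the culture in both strains, by 1.12 on the log2 scale in the mutant and by 2.34 in WT from 12h to 5d. It stood at 14.7 and 13.9 CPM in the mutant at 5d, against 6.57 and 6.11 CPM in WT (1.17 ± 0.129, edgeR, adjusted p = 9.85e-07). mus-59, a checkpoint kinase of the DNA damage response, had 18.8 and 17.3 CPM in the mutant at 5d, against 7.46 and 10.3 CPM in WT (1.02 ± 0.174, edgeR, adjusted p = 9.9e-05). prd-4, the checkpoint kinase 2 that also links DNA damage to the circadian clock, fell at 3d by 0.45. It was called lower at 1d (-0.34) and higher at 5d (0.32), and both calls were lost with library totals alone (-0.18 and 0.22). Leaving out mutant 1d replicate 1 or WT 1d replicate 2 also ended the first, and leaving out WT 5d replicate 1 the second. div-4 was called lower at 1d (-0.26) and 3d (-0.33). Its 1d call was lost with 12 of the 16 libraries left out in turn and with library totals alone (-0.1). Its 3d call was lost without mutant 3d replicate 2 or WT 3d replicate 2, but not with library totals alone (-0.55).

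Of the 8 kinases of nutrient and stress responses, 5 were higher and 1 lower at 5d, and 2 higher and 4 lower at 3d. With library totals alone these were 5 and 2, and 0 and 6. prk-1 had 312 and 370 CPM in the mutant at 12h, against 231 and 243 CPM in WT, and 898 and 875 CPM in the mutant at 5d, against 542 and 501 CPM in WT. It rose by 0.52 ± 0.0826 at 12h and 0.77 ± 0.0822 at 5d (edgeR, adjusted p = 0.000533 and 7.31e-07). At 3d it rose by 0.24, a call lost with library totals alone (0.01) and without mutant 3d replicate 2 (adjusted p = 0.129) or WT 3d replicate 1 (0.0971). prk-8, named for the MAK kinases, had 320 and 312 CPM in the mutant at 5d, against 158 and 178 CPM in WT (0.91 ± 0.0672, edgeR, adjusted p = 8.62e-09). It rose also at 12h (0.28) and 3d (0.29). The 12h call was lost without mutant replicate 1, WT replicate 1 or WT replicate 2 (adjusted p = 0.0785, 0.0579 and 0.0795), and the 3d call with library totals alone (0.06).

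The other members of this group followed several courses. stk-5, named for the yeast salt tolerance kinase hal4, rose at 1d by 0.58 and at 5d by 0.50. Between them, at 3d, it was lower by -0.32, a call lost without mutant replicate 1. stk-11 fell by 0.57 at 3d. It was also called higher at 1d (0.24) and lower at 5d (-0.27), the first lost without either mutant library of 1d or WT 1d replicate 2 and the second without mutant 5d replicate 1. prk-10, the SNF1 kinase that acts when glucose is scarce, was called at no time with TMM scaling, with log2 fold changes between -0.05 and 0.21. Under library totals alone it was lower at 3d (-0.28, edgeR, adjusted p = 0.00561). stk-14, the IRE1 kinase, was also called at no time with TMM scaling. It had 348 and 369 CPM in the mutant at 5d, against 385 and 391 CPM in WT (-0.11 ± 0.0589, edgeR, adjusted p = 0.103). Scaled by library totals alone, stk-14 passed at 1d (0.22), 3d (-0.29) and 5d (-0.22). From 12h to 5d it rose by 0.71 in the mutant and 0.66 in WT.

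The largest group was that of 22 further genes with stk symbols, of which 12 were higher and 1 lower at 5d, and 4 higher and 4 lower at 3d. Under library totals alone these counts were 10 and 1, and 2 and 13. stk-39 had 54.6 and 53.0 CPM in the mutant at 3d, against 55.1 and 54.5 CPM in WT, and the libraries overlapped. At 5d it had 222 and 191 CPM in the mutant, against 51.9 and 54.0 CPM in WT. It rose there by 1.96 ± 0.0868 (edgeR, adjusted p = 1.77e-11), the largest rise of any member in the mutant against WT at any time, and it did not pass the test in WT from 12h to 5d (0.08). At 12h its log2 fold change was 0.28 (adjusted p = 0.0435), a call lost with 9 of the 16 libraries left out in turn.

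stk-51 was called higher in the mutant than in WT at 3d alone. It had 137 and 159 CPM in the mutant at 3d, against 52.2 and 55.8 CPM in WT (1.45 ± 0.0948, edgeR, adjusted p = 1.11e-09). At 5d it had 58.4 and 60.1 CPM in the mutant, against 67.3 and 59.5 CPM in WT, and the libraries overlapped. In both strains it ended lower than it began, by 0.99 on the log2 scale in the mutant and 1.12 in WT. The difference at 5d minus that at 3d was -1.55 ± 0.134 (edgeR, adjusted p = 1.07e-07).

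stk-52, which encodes the RIO1 kinase of ribosome maturation in yeast, had 34.9 and 33.6 CPM in the mutant at 3d, against 18.7 and 18.2 CPM in WT (0.89 ± 0.106, edgeR, adjusted p = 1.92e-06). It was higher also at 5d, by 0.60. Its fall from 12h to 5d was 0.37 in the mutant and 1.00 in WT. rbg-40, the RIO2 kinase, was called at no time, at 1.35 to 4.75 CPM. stk-55 had 16.1 and 15.9 CPM in the mutant at 5d, against 9.49 and 10.9 CPM in WT. It was higher in the mutant than in WT at 3d by 0.56 and at 5d by 0.65. In WT its fall from 12h to 5d was among the 3 largest of the members. Its highest group mean was that of WT at 12h and its lowest that of WT at 5d. Its 3d call was lost with library totals alone (0.33, adjusted p = 0.065).

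stk-28 had 69.9 and 92.4 CPM in the mutant at 1d, against 130 and 132 CPM in WT, and 97.6 and 89.3 CPM in the mutant at 5d, against 54.2 and 65.0 CPM in WT. It was lower in the mutant than in WT by 0.69 at 1d and higher by 0.65 ± 0.105 at 5d (edgeR, adjusted p = 0.000149 and 6.25e-05), as was camk-4. In all 9 members were lower at 1d and higher at 5d (11.7%, against 6.94% of all genes), but with library totals alone only camk-4 and stk-28 were (2.6%, against 2.65%). stk-49 fell at 3d and 5d: it had 38.2 and 35.4 CPM in the mutant at 3d, against 56.9 and 60.2 CPM in WT (-0.67 ± 0.0837, edgeR, adjusted p = 3.37e-06). At 5d its log2 fold change was -0.62. stk-21, the scarcest member, was called at no single time with TMM scaling, at a mean log2 fold change of -0.44 over the 4 times. stk-22 rose in both strains from 12h to 5d, by 2.00 in the mutant and 2.01 in WT. It had 521 and 513 CPM in the mutant at 5d, against 338 and 444 CPM in WT, and its rise of 0.40 was lost without WT 5d replicate 1 (0.22, adjusted p = 0.0822) and was 0.61 without WT 5d replicate 2. Its 12h call (0.42) was lost without any 1 of the 4 libraries of that time (adjusted p = 0.106 and 0.0769 without mutant replicates 1 and 2, 0.138 and 0.0878 without WT replicates 1 and 2).

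**Figure D5:**
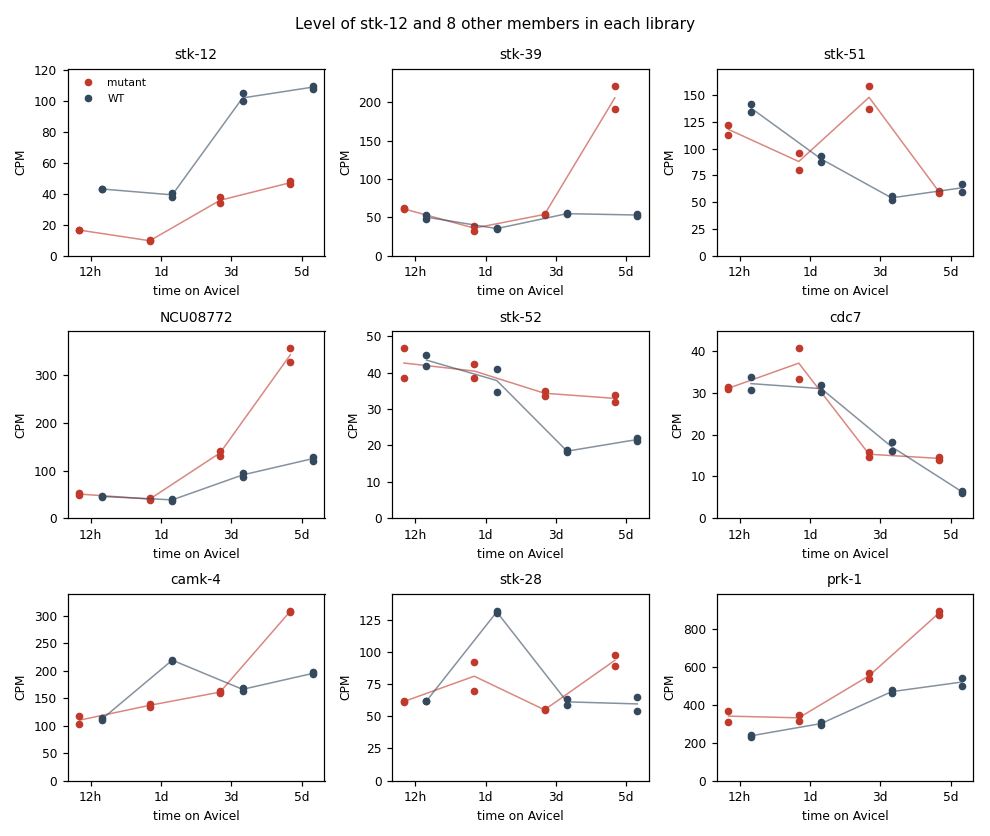
CPM of stk-12 and 8 other members in each library against time on Avicel, with lines through the group means (red mutant, blue WT, each vertical axis from 0). The mutant exceeds WT for stk-39 at 5d (222 and 191 against 51.9 and 54.0 CPM) and for stk-51 at 3d (137 and 159 against 52.2 and 55.8 CPM).

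Of the 10 remaining kinases, 4 were higher and 3 lower at 5d (3 and 3 with library totals alone). These were 40% and 30%, against 30.6% and 30.9% of all genes. fi, a serine/threonine kinase by product name, rose in both strains from 12h to 5d, by 2.14 in the mutant and 1.69 in WT. It had 148 and 143 CPM in the mutant at 5d, against 80.8 and 89.8 CPM in WT (0.77 ± 0.0966, edgeR, adjusted p = 4.23e-06). NCU05260, a protein with a kinase domain by name, had 10.4 and 14.0 CPM in the mutant at 1d, against 32.5 and 29.7 CPM in WT. It fell by 1.34 ± 0.211 at 1d and 0.88 ± 0.209 at 3d (edgeR, adjusted p = 0.000182 and 0.0017). At 5d it had 13.7 and 14.1 CPM in the mutant, against 13.7 and 25.8 CPM in WT, and the libraries overlapped. Its log2 fold change of -0.51 there (adjusted p = 0.0387) was 0.01 without WT replicate 2 (adjusted p = 0.953), -0.89 without WT replicate 1, and not past the test without mutant replicate 1 or 2 (adjusted p = 0.129 and 0.108). mdk-2 had 483 and 461 CPM in the mutant at 5d, against 370 and 411 CPM in WT (0.27 ± 0.0684, edgeR, adjusted p = 0.00257), a call lost with library totals alone (0.17, adjusted p = 0.0695). At 1d mdk-2 was lower (-0.19), a call lost with 14 of the 16 libraries left out in turn and with library totals alone (-0.03). prk-6 fell at 5d by 0.63 and prk-11, the BUD32 kinase, by 0.46. At 3d prk-6 was higher (0.36), a call lost with library totals alone (0.13) and without mutant 3d replicate 2 or WT 3d replicate 1. prk-3 was called lower at 1d (-0.55), and no left-out library or library totals alone (-0.39) ended that call.

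Of the 7 rows that are not serine/threonine kinases by name, 1 was higher and 3 lower at 5d. The 1 that was higher is NCU08772, named as a component of a cyclin-dependent kinase complex. It had 131 and 142 CPM in the mutant at 3d, against 85.6 and 95.8 CPM in WT, and 357 and 328 CPM in the mutant at 5d, against 121 and 129 CPM in WT. It rose by 0.59 ± 0.0814 at 3d and 1.45 ± 0.081 at 5d (edgeR, adjusted p = 9.9e-06 and 3.02e-10). The 3 that were lower are mcb, mob-2b, an activator that binds NDR kinases (-0.39, and higher at 3d by 0.37, a call lost with library totals alone and without WT 3d replicate 2), and the adaptor NCU01389 (-0.31), whose call was lost without any 1 of the 4 libraries of 5d. mob-1 was called only at 1d (-0.39). That call was lost with library totals alone (-0.23) and without mutant 1d replicate 1 or either WT library of 1d.

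Genes that act with these kinases were counted in the same fit. At 5d 61.6% of all genes were called, as given above. A list of 10 protein kinases outside the rule was picked by name: mik-1, mek-1, os-4, pod-6, camk-1, ck-1a, ck-1b, cka, apg-1 and cpc-3. It does not hold every kinase outside the rule. Of these 10, 7 were higher and none lower at 5d (70%). Counts with library totals alone are not given for the lists of this paragraph. Of the 3 genes of the mating and fusion cascade that were left out, 2 were higher and none lower (66.7%). Of 31 protein phosphatases, enzymes that remove the phosphate, 11 were higher and 8 lower (61.3%, median log2 fold change 0.08), and their summed level was 3792 CPM in the mutant at 5d, against 3418 CPM in WT. Of 12 cyclins and kinase regulatory subunits, 5 were higher and 2 lower (58.3%). Of the 8 conidiation markers, 3 were higher and 4 lower at 5d, and 1 was higher and 6 lower at 3d. Their part in the kinase differences was not tested.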

How the data were processed

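Per the file headers, the deposited table gives a count of reads and an RPKM value for each of 9730 genes in 16 libraries. TopHat2 (2.0.8b) and HTSeq (0.5.4p3) are named in the submitters' processing notes, while the genome build and the strand setting are not given in the sources used here, so overlapping, antisense and near-identical genes are uncertain. Deposited RPKM equalled count divided by library total and gene length for 100% of 146267 values above 0 (relative tolerance 0.001), and served only for levels between genes. In 2 libraries 6 entries that named no gene were left out. The last repeated the gene total, and the others held 4.43% (mutant 5d replicate 1) and 6.86% (WT 3d replicate 2) of the reads.

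Using R (4.3.3) and edgeR (4.0.16), 747 genes were dropped by filterByExpr and 8983 tested. TMM scaling was applied, and 1 quasi-likelihood model of the 8 group means covered all 16 libraries (8 residual degrees of freedom, common biological coefficient of variation 0.0685). Contrasts compared the strains at each time, the strain differences between times, and the times within a strain. Adjusted p-values followed Benjamini and Hochberg over all genes, and called means an adjusted p under 0.05. The SE was derived from the log2 fold change and its F statistic. The fit was tested on simulated data, where the share of false calls was somewhat above the nominal threshold at each time. The simulation changed far fewer genes than were called here and gave genes of equal level an equal spread. Its share of false calls may therefore not hold for these data, and calls close to the threshold stay uncertain. Tables and figures were made with Python (3.11.15), NumPy (2.4.6), pandas (2.3.3) and matplotlib (3.10.9).

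Alternatives were library totals alone, DESeq2 size factors, DESeq2 (1.42.0), no filter, a replicate block, single-time fits and leaving out each library. Same-numbered libraries did not deviate together (r between -0.0368 and 0.0208), so the numbers were not used as pairs. Omitting the 7 rows and comparing 12h with 5d within a strain were added after seeing the data, as were the counts per role under other scalings and the refits of members outside the rule.

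The genes treated in full were stk-12, the 6 called members with the largest strain difference at each time, the 6 whose strain difference varied most over time, the 3 with the largest rise and the 3 with the largest fall in WT from 12h to 5d, and the 5 most abundant, 23 in all. Up to 4 members per role with the largest mean strain difference were examples. Other members given by a value, such as pkc, prd-4, cot-1, os-5, prk-10, prk-6 and the subunits of cAMP-dependent kinase, were chosen after their values were seen. Roles were assigned by hand from product names and symbols. Members and lists were chosen with earlier results of these data known.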

Additional observations from a re-analysis of the deposited data

Results flagged for a closer look

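Of the 23 genes treated in full, 20 had a strain difference that was not equal at the 4 times by the F test of genotype by time in edgeR (adjusted p under 0.05, over all genes tested). The value given for each is the gap between its highest and lowest log2 fold change of mutant against WT over the 4 times. The gap was 1.99 for stk-39, 1.77 for NCU05260, 1.68 for stk-51, 1.39 for NCU08772, 1.34 for stk-28 and for camk-4, 1.33 for cdc7 and 1.20 for mus-59. It was 0.95 for stk-13, 0.92 for stk-52, 0.89 for fi, 0.85 for nrc-2, 0.83 for stk-12, 0.81 for stk-55, 0.75 for prk-8 and 0.71 for NCU04597. The smallest gaps were 0.63 for prk-1, 0.60 for stk-49, 0.46 for mdk-2 and 0.44 for stk-22. Many of these genes were named for a large strain difference or for a difference that varied, so their number is a description. Of all genes tested, 77.5% passed the same F test.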

How the results depend on the processing

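Leaving out 1 library at a time gave 3 to 11 members called at 12h, 18 to 32 at 1d, and 12 to 23 for the change in strain difference from 12h to 1d. At 5d the range was 46 to 54. These ranges are given for the members only, without those of all genes. With library totals alone, 56 members differed at 3d (3 higher and 53 lower, against 32 members with TMM scaling). For the change from 1d to 3d 51 differed (27 with TMM scaling), and at 1d the members divided into 28 higher and 9 lower. All genes moved with that scaling too, by the shares given above, so these shifts were not those of the kinases alone. Only the libraries of 1d gave 18 members at that time, against 29, again without the count of all genes. Reversed values were nrc-2 at 3d (-0.22) and stk-28 in WT from 12h to 5d (0.47), both with library totals alone, and NCU05260 at 5d, which ran from -0.89 without WT replicate 1 to 0.01 without WT replicate 2. Further, 24 values of genes treated in full that passed no test before or after changed sign in some setting, the largest to 0.53, and are not counted as reversed. With library totals alone the median of all genes moved to 0.60 for WT from 12h to 5d. A replicate block, although the numbers were not taken to pair libraries, gave 9, 29, 33 and 54 members at 12h, 1d, 3d and 5d and moved no count by over 1.5 times. These counts too are for the members only. The causes of these changes were not tested.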
